A study of Mus musculus with 3 samples.

Results

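Long non-coding RNA (lncRNA) genes were examined in RNA sequencing of purified platelets. They were taken as all rows of the count tables whose Entrez number carries the biotype lncRNA in the RefSeq annotation of the mouse genome build GRCm38. This rule gave 232 of 9822 genes. The platelets came from blood of male BALB/c mice, 20 weeks old and wild type for Nxf1, the gene of the main receptor that carries mRNA out of the nucleus. There was 1 group of 3 libraries, replicates 1 to 3, with no treatment, and every replicate has its own batch number in the labels, so animal and batch cannot be told apart. The series calls the samples independent without naming a mouse for each. The errors therefore describe how these 3 samples differ, in part perhaps for technical reasons.

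LncRNAs are transcripts longer than small RNAs that are not known to be translated into a protein. Some act where they are made: Neat1 builds the paraspeckle, a nuclear body, and Malat1 gathers in nuclear speckles. Others work in the cytoplasm, such as Norad, which binds Pumilio proteins. Platelets are shed by megakaryocytes and have no nucleus, so their RNA is what the parent cell passed on, and RNAs known from either compartment can be compared in them.

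The tables held 25189231 to 26974129 counts per library, and the median member had 72, 71.5 and 68.5 counts in replicates 1, 2 and 3. The summed platelet markers (Itga2b, Pf4, Ppbp, Gp1ba, Gp9 and Tubb1) were at 30909, 32637 and 33043 CPM (counts per 1000000 counts of the library). Red cell RNA was uneven: its 7 markers summed to 48710 CPM in replicate 1 against 5215 and 6800 CPM in replicates 2 and 3. The 13 leukocyte markers summed to 1456, 1683 and 1631 CPM, mostly from Lyz2, and the B cell gene Cd79b was at 6.19, 9.17 and 17.0 CPM. Of the leukocyte list, Cd3e was not in the tables used here, and no listed marker was at 0. In such bulk samples fewer cells of a type and less RNA per cell cannot be told apart, and low lncRNA levels may come from other blood cells as well as platelets, which was not tested.

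LncRNA genes took 0.690% ± 0.0207 of counts (SD, n = 3). The share was 0.688% in replicate 1, with an exact 95% binomial (Clopper-Pearson) range of 0.685% to 0.691%. Replicate 2 had 0.711%, between 0.708% and 0.714%, and replicate 3 had 0.670%, between 0.667% and 0.673%; these limits cover counting error only. Replicate 2 was the highest and replicate 3 the lowest. A single gene, Gm6634, made up 41.2% ± 0.903 of these counts, and the 10 highest members 69.7% ± 0.679. Without Gm6634 the share was 0.405% ± 0.00617. Most lncRNA reads thus came from a few loci. Counts of all genes were concentrated as well: on totals without the 10 highest genes the lncRNA share was 1.22%.

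Of the 12731 lncRNA genes in RefSeq, 1.82% were in the tables, against 41.6% of protein-coding genes. The tables had been filtered before deposit, and the best library of the lowest member was at 0.46 CPM. The annotation used for counting is not given, so genes removed by the filter and genes never counted cannot be told apart. A level of 1 CPM or more in all 3 libraries was reached by 167 of 232 members (72%), against 77.7% of all genes and 78.1% of protein-coding genes. LncRNA genes had a median of 2.72 CPM and protein-coding genes one of 3.90 CPM. Per 1000 bases of gene length (RPKM) the order turned, with medians of 1.93 and 1.39 RPKM, since the median lncRNA gene was 1494 bases long and the median protein-coding gene 2910. A mean of 10 CPM was reached by 56 members (24.1%, against 31.1% of protein-coding genes) and 100 CPM by 15 (6.47% against 7.96%).

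Gm6634, an intergenic RNA of no known role (chr3:70772379-70807291 in GRCm38, minus strand), was at 2821, 3004 and 2712 CPM in replicates 1, 2 and 3. It was higher in every library than any other member was in any library. Per length it was at 1577 ± 81.8 RPKM (SD, n = 3), above the next member, Gm1968, at 320 ± 12.0 RPKM. The nearest protein-coding gene in RefSeq, Otol1, lies 743671 bases away and was not in the tables used here.

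Oip5os1, also known as Cyrano (chr2:119594296-119600746, plus strand), came second by reads, at 426, 430 and 403 CPM. Gm1968 (chr16:29957927-29979124, minus strand) was at 303, 326 and 314 CPM and 2310034O05Rik (chr5:100210692-100218049, plus strand) at 338, 317 and 329 CPM, so that this pair overlapped by reads. Per length they separated: Gm1968 was at 308, 332 and 320 RPKM and 2310034O05Rik at 305, 286 and 298 RPKM. Oip5os1 followed at 275, 277 and 260 RPKM, below 2310034O05Rik in every library. The roles of Gm1968 and 2310034O05Rik are not described here because they are not known with certainty.

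**Figure D1:**
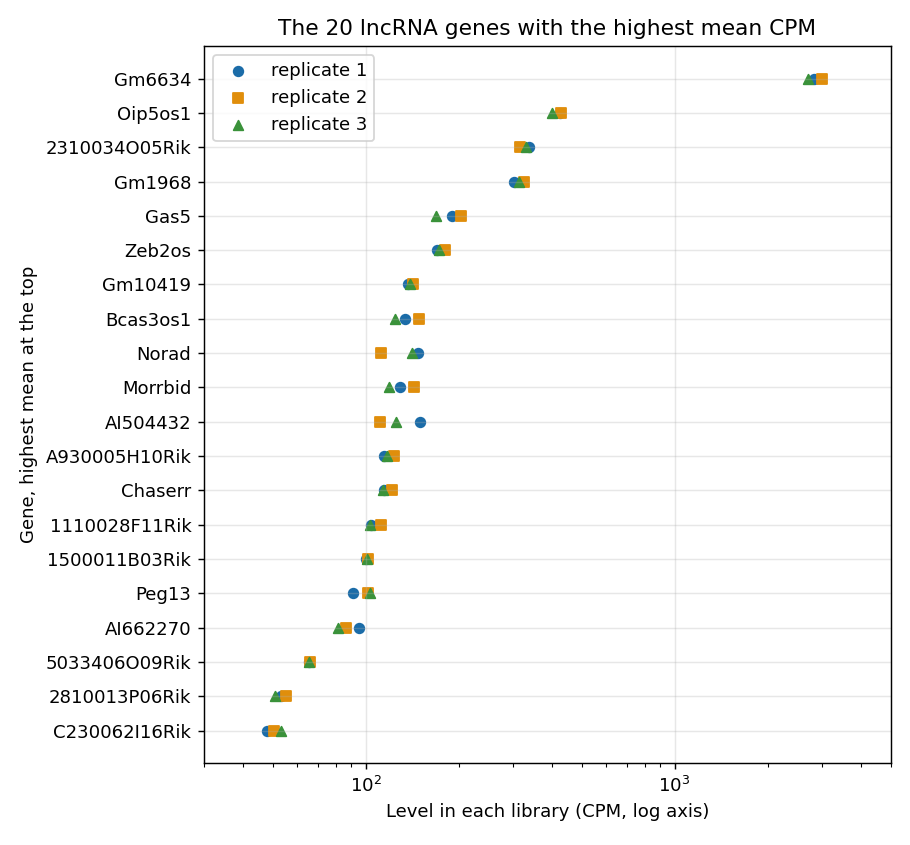
Levels of the 20 lncRNA genes with the highest mean CPM, 1 row per gene and 1 point per library, on a log axis. Gm6634 stands apart at 2712 to 3004 CPM, the next 3 genes lie between 303 and 430 CPM, and in most rows the 3 libraries nearly coincide; Norad and AI504432 are lowest in replicate 2.

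Next in read share came genes with a known name or neighbour. Gas5, the host of a cluster of small nucleolar RNAs (chr1:161034601-161038539, plus strand), was at 191, 204 and 170 CPM. Zeb2os, transcribed opposite the transcription factor gene Zeb2, was at 175 ± 5.64 CPM (SD, n = 3), Gm10419 at 140 ± 2.43 CPM and Bcas3os1 at 136 ± 12.3 CPM. Morrbid, known as a regulator of the death gene Bcl2l11 in short-lived myeloid cells, was at 129, 143 and 119 CPM. Replicate 2 was the highest of the 3 for Gas5, Bcas3os1 and Morrbid. Chaserr, which restrains the neighbouring gene Chd2, was at 117 ± 4.22 CPM, and Peg13, an imprinted RNA made within Trappc9, at 98.6 ± 6.60 CPM.

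The rest of the 20 highest were AI504432 at 129 ± 19.6 CPM, A930005H10Rik at 119 ± 4.50 CPM, 1110028F11Rik at 107 ± 4.93 CPM, 1500011B03Rik at 101 ± 0.708 CPM and AI662270 at 87.8 ± 6.76 CPM (SD, n = 3). Below them 5033406O09Rik was at 65.8 ± 0.274 CPM, 2810013P06Rik at 53.2 ± 2.07 CPM and C230062I16Rik at 50.5 ± 2.78 CPM. Short genes moved up per length: 1700029N11Rik (565 bases) and Zfp652os (537 bases) ranked 6 and 9 of all members, at 86.3 ± 5.87 and 66.2 ± 3.52 RPKM. The label was checked against the GENCODE M21 annotation, which had a gene for 215 members. It calls 3 of them protein-coding, among them 1500011B03Rik, and 4 pseudogenes, led by BC064078 at 35.1 CPM.

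Norad (chr2:156388063-156392979, minus strand), the best known cytoplasmic example, ranked 9 of the members by reads. It was at 148, 112 and 142 CPM, from 3983, 2823 and 3703 counts, a mean of 134 ± 19.1 CPM (SD, n = 3). Replicate 2 was the lowest. The coefficient of variation of Norad (SD over mean) was 14.3%, rank 4 from the widest of the 86 members at 5 CPM or more on plain CPM and rank 15 with TMM scaling. Per length it was at 27.2 ± 3.88 RPKM. Its human counterpart is known for repeated sites that Pumilio proteins bind, and the mouse transcript in GENCODE M21, 4915 bases long, held the 8-base Pumilio motif TGTANATA 11 times. The following of the 11 sites are shown because 4 of them share their downstream bases; the motif is in capitals with 8 bases on each side, in the sense of the RNA.
Norad site 2, chr2:156391826-156391833: aaacatgcTGTAAATAcctttttg
Norad site 4, chr2:156391450-156391457: gactgctgTGTATATAgtggacaa
Norad site 6, chr2:156391144-156391151: gtgtatacTGTATATAatggacaa
Norad site 9, chr2:156390522-156390529: gtatatatTGTACATActggacaa
Norad site 10, chr2:156390219-156390226: tactactaTGTATATAggggacaa

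Sites 4, 6, 9 and 10 were each followed, after 2 bases, by ggacaa, and the other 7, such as site 2, were not. Among 9299 GENCODE transcripts within 20% of the length of Norad, 40.3% had at least 1 such motif on the sense strand, the median had 0, and 3 transcripts (0.0323%, Norad included) had 11 or more. Of the 215 members with a GENCODE transcript, the next highest numbers were 4 in Neat1, over 20771 bases, and 4 in Rab10os. A motif match is a description of the letters, not a bound site. The Pumilio gene Pum2 was at 65.7, 63.2 and 72.5 CPM, highest in replicate 3. Per length it was at 9.83, 9.45 and 10.8 RPKM, below Norad in every library. Among other listed partners of Norad were the splicing regulator Khdrbs1 at 13.4 ± 4.44 CPM and Rbmx, which was under 1 CPM in replicates 1 and 2 and at 2.45 CPM in replicate 3.

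Oip5os1 is known in mammals for a site that pairs almost throughout with the microRNA miR-7 and leads to its destruction. That site is shown with the microRNA because Oip5os1 was the second highest member. Capitals mark the seed of the microRNA (bases 2 to 8) and the bases of the transcript complementary to it.
mmu-miR-7a-5p: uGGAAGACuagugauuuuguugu
Oip5os1 site, chr2:119602136-119602161: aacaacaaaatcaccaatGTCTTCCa

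The site differed from the full complement of the 23-base microRNA by 3 edits. A match to the seed alone was found in 47.3% of the 2331 GENCODE transcripts within 20% of the length of the longest Oip5os1 transcript (8300 bases), but only 1 of them, Oip5os1 itself, had a seed match with 3 edits or fewer. The site lies 1390 bases past the end of Oip5os1 in the RefSeq table, and the counted length was 1551 bases. The reads counted for Oip5os1 therefore come from the upstream part of the locus as far as this annotation shows, and whether platelet RNA reaches the site was not measured.

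Of the known nuclear RNAs, Neat1 (chr19:5824708-5845480, minus strand) was at 22.1, 21.9 and 21.4 CPM, with a coefficient of variation of 1.64% on plain CPM and 9.13% with TMM scaling (which sets the typical gene equal between libraries), and at 6.85 ± 0.112 RPKM (SD, n = 3). The counted length of 3177 bases covers a small part of the 20771 exon bases in GENCODE M21, so the long isoform, which builds paraspeckles, was not counted over most of its length. Tug1 (chr11:3639785-3648814, minus strand), found in both compartments in many cells and listed here as nuclear, was at 25.5, 20.0 and 25.4 CPM, lowest in replicate 2 as Norad was, and at 3.54 ± 0.471 RPKM; its exons overlap Morc2a, at 1.92 CPM. Malat1 (chr19:5795690-5802672, minus strand), one of the most abundant nuclear RNAs of most nucleated cells, was at 3.52, 3.26 and 3.26 CPM, from 95, 82 and 85 counts. Over its 6982 bases that is 0.479 ± 0.0220 RPKM, which ranked 198 of 232 members and lay under the median member of 1.93 RPKM. Malat1 ends without an ordinary poly(A) tail, and the effect of the RNA selection step on its count was not tested.

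Per length, Norad exceeded Malat1 by 5.79 ± 0.18 on the log2 scale (SD, n = 3), or 55.2 times. It exceeded Tug1 by 2.94 ± 0.03, or 7.66 times, and Neat1 by 1.98 ± 0.22, or 3.93 times. Neat1 in turn exceeded Malat1 by 3.81 ± 0.05, or 14.0 times, and Tug1 exceeded Malat1 by 2.85 ± 0.18. Each of these differences had the same sign in all 3 libraries and was several times its SD. Tug1 lay below Neat1 per length (-0.96 ± 0.21) but not per read, where the log2 ratio was 0.11 ± 0.21 and within the spread. For these 6 pairs an exact two-sided sign-flip permutation test over 3 libraries gives p = 0.25, the smallest it allows, so sizes and SDs are given.

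The lists of nuclear and cytoplasmic lncRNAs overlapped widely. Of 16 nuclear symbols 4 were in the tables, the other member being Mir99ahg at 14.9 ± 0.772 CPM and 4.72 RPKM, and all 4 reached 1 CPM in every library. Xist, Kcnq1ot1, Meg3, Miat, Pvt1, Firre, Jpx, Ftx and Lncpint were among the 12 that were not. Absence does not show whether a gene was silent in these male mice, removed by the filter or never counted. Of 12 cytoplasmic symbols 9 were in the tables and 5 reached 1 CPM in every library, beside 77.7% of all genes. The median of the nuclear list was 4.13 RPKM and that of the cytoplasmic list 10.3 RPKM, beside 1.49 RPKM for all genes. By reads the order was the opposite, with medians of 18.3 CPM for the nuclear and 4.90 CPM for the cytoplasmic list. Oip5os1, Gas5, Norad, Snhg8 (16.2 ± 0.439 RPKM) and Snhg1 (10.3 ± 0.421 RPKM) lay above every nuclear RNA. Snhg12, Snhg6, Dancr and Snhg5 lay between 0.660 and 1.67 RPKM, below Tug1.

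**Figure D2:**
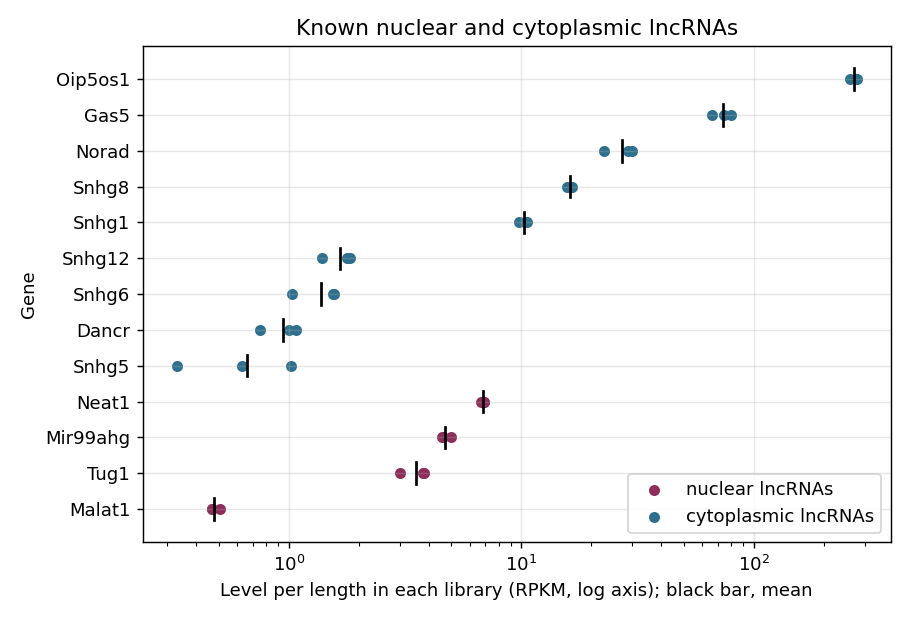
Level per length of the listed cytoplasmic (upper) and nuclear (lower) lncRNAs in the tables, in RPKM on a log axis, 1 point per library with the mean as a bar. Malat1 is the lowest nuclear RNA at 0.479 RPKM and Oip5os1 the highest cytoplasmic one at 270 RPKM, while 4 cytoplasmic RNAs lie below Tug1.

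Genes of the protein partners of Neat1 were also measured. All 7 listed paraspeckle protein genes reached 1 CPM in every library, a level that 78.1% of protein-coding genes reached. Nono was at 14.0, 13.8 and 20.5 CPM and Sfpq at 12.3, 11.4 and 17.0 CPM. Both are core paraspeckle proteins and both were highest in replicate 3, as were 65.1% of protein-coding genes between 10 and 100 CPM. Neat1 was at 22.1, 21.9 and 21.4 CPM in replicates 1, 2 and 3. Per length Nono was at 6.52 ± 1.56 RPKM and Sfpq at 3.66 ± 0.805 RPKM, beside 6.85 ± 0.112 RPKM for Neat1: Nono overlapped Neat1 and Sfpq lay below it in every library.

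Host genes of small nucleolar RNAs, whose introns carry the small RNAs while the spliced exons are exported, ranged widely. The 24 symbols, which name Gas5 again as Snhg2, led to 10 members in the tables. Of these members 6 reached 1 CPM in every library, beside 72% of all members and 77.7% of all genes, with a list median of 3.51 CPM. After Gas5 came Zfas1, at 18.1 ± 1.05 CPM and 24.5 ± 1.42 RPKM (SD, n = 3), and Snhg8 at 12.7 ± 0.345 CPM. Snhg1, Snhg4 and Snhg10 were at 4.90 ± 0.200, 3.67 ± 0.610 and 3.34 ± 0.680 CPM. Snhg12 and Dancr were close to 1 CPM. Snhg5 (9, 16 and 27 counts) and Snhg6 (17, 16 and 11 counts) were near the limit of these tables. Gas5 thus gave more reads than the other 9 hosts together in each library, out of sums of 237, 250 and 214 CPM.

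Members that hold a microRNA hairpin were found by position. In 8 members a hairpin of the RefSeq miRNA table lay within the span on the same strand, 10 hairpins in all. The share over all genes was not computed. The highest was F630028O10Rik on the X chromosome, which contains Mir223, the gene of a microRNA known to be abundant in platelets and myeloid cells. It was at 18.8, 18.8 and 18.9 CPM, from 506, 474 and 493 counts. That was the narrowest spread on plain CPM of any member at 5 CPM or more (coefficient of variation 0.324%, or 7.33% with TMM scaling). Mir22hg was at 10.4, 7.94 and 5.40 CPM, the widest spread of those members on either scale (31.5% and 37.1%). Dleu2, the host of Mir16-1, was at 7.45, 7.50 and 6.66 CPM, and C430049B03Rik, which contains Mir322 and Mir503, at a mean of 1.27 CPM. Of the 18 symbols of the microRNA host list 3 were in the tables (Mir22hg, Mir99ahg and Dleu2), with a median of 7.91 CPM, all at 1 CPM or more. Mir99ahg is on that list by name, and no hairpin was found within its RefSeq span. Mature sequences from RefSeq for GRCm38.p6 are shown to compare the seeds of these hosts, with bases 2 to 8 in capitals.
mmu-miR-223-3p: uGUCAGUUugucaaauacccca
mmu-miR-22-3p: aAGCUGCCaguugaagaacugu
mmu-miR-16-5p: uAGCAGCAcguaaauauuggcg
mmu-miR-322-5p: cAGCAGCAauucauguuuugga

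The seeds of miR-16-5p and miR-322-5p, from Dleu2 and C430049B03Rik, are the same, and those of miR-223-3p and miR-22-3p differ from it and from each other. The libraries measured the host RNAs, not the microRNAs, so the levels above say nothing of the mature forms. The list of immune and blood lncRNAs had 2 of 10 symbols in the tables: Morrbid, at 29.1 ± 2.71 RPKM, and Dnm3os, at 0.665 ± 0.191 CPM (SD, n = 3), of which only Morrbid reached 1 CPM in every library. The list median of 65.6 CPM is thus the midpoint of those 2 genes.

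Many members lay close to protein-coding genes, and the shares below were not computed over all RefSeq lncRNA genes. The RefSeq span of 111 of 232 members (47.8%) overlapped a protein-coding gene, in 94 of 111 cases on the opposite strand by the GENCODE strand. A further 36 members lay within 1000 bases, 34 of them on the opposite strand, and 27 lay more than 50 kilobases from any. Exons of 119 members (51.3%) overlapped exons of another gene. The counting is not stated to use strand, so reads of such a member and of its partner cannot be told apart. Among the 10 highest members 7 had no exon overlap; the other 3 were Zeb2os, Gm10419 and Morrbid.

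The nearest protein-coding gene was in the tables for 186 of 232 members (80.2%), beside 41.6% of all RefSeq protein-coding genes. The median of these neighbours was 9.91 CPM, above that of all protein-coding genes (3.90 CPM). These figures are for members that passed the filter of the tables. Exons of 109 of the 186 overlap another gene, and the part of shared reads was not tested. Across the 186 members, the log2 of mean CPM of member and neighbour had a Spearman's rho of 0.310 and a Pearson's r of 0.284. Genes are not independent replicates, and both values come from the same libraries. For the 77 members without exon overlap rho was 0.277. Per length the neighbour was the higher of the 2 in 98 of 186 pairs.

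Named pairs fell on both sides of that line. Chaserr was at 22.7 ± 0.820 RPKM and its target Chd2 at 0.734 ± 0.175 RPKM (SD, n = 3). Exons of Chaserr and Chd2 overlap on the same strand, so reads from the shared part cannot be told apart. Morrbid was at 29.1 ± 2.71 RPKM and Bcl2l11 at 2.90 ± 0.277 RPKM. Zeb2os stood at 126 ± 4.06 RPKM against 14.3 ± 0.391 RPKM for Zeb2, with exons that overlap on opposite strands. Oip5os1 exceeded its neighbour Chp1 (18.8 ± 0.950 RPKM) and 2310034O05Rik exceeded Tmem150c (9.44 ± 0.296 RPKM). In each of these pairs the lncRNA was higher by many times the SD between libraries. The lncRNAs compared here were all among the 20 highest members by CPM, so a higher lncRNA follows in part from that choice. Chd2 and Trappc9 lie outside the rule for named genes. Peg13 (20.9 ± 1.40 RPKM) and Trappc9 (17.4 ± 1.38 RPKM) were close, and Bcas3os1 (43.3 ± 3.93 RPKM) lay below Bcas3 (76.1 ± 5.55 RPKM). Otol1, Hes1, Gm42517 and Cnbd2, nearest to Gm6634, Gm1968, Gm10419 and Norad, were not in the tables used here.

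Some lncRNA genes lay far below an abundant neighbour; these pairs were chosen after their values were seen. G6bos, whose strand GENCODE did not give, overlaps Mpig6b, a gene of an inhibitory platelet receptor. It was at 4.62 ± 0.238 RPKM against 239 ± 16.4 RPKM for Mpig6b (SD, n = 3). Hk1os was at 38.2 ± 2.71 RPKM against 111 ± 12.5 RPKM for Hk1, the hexokinase gene. Gm10244 was at 20.5 ± 0.880 RPKM against 1084 ± 47.1 RPKM for Mkrn1. The intergenic 4930444M15Rik, 6793 bases from Tsc22d1, was at 1.87 ± 0.0980 RPKM while Tsc22d1 was at 4752 ± 281 RPKM. Except for the last pair, exons overlapped (for G6bos, its span), so that part of the lncRNA count may belong to the partner.

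**Figure D3:**
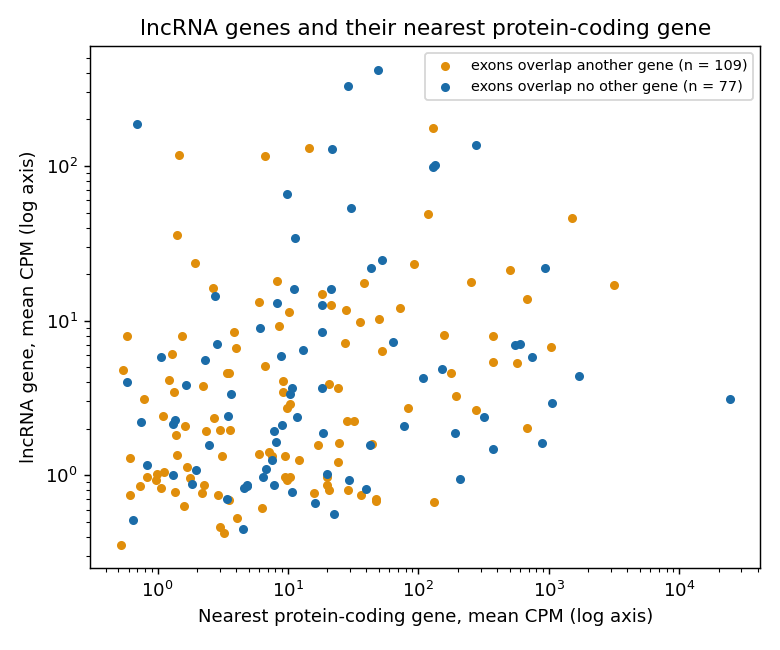
Mean CPM of 186 lncRNA genes against that of the nearest protein-coding gene in the tables, both on log axes, 1 point per lncRNA gene, coloured by exon overlap (109 with, 77 without). The points scatter widely around a weak rising relation (Spearman's rho 0.310), and the point at the far right is 4930444M15Rik beside Tsc22d1.

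Differences between libraries were tested with edgeR's quasi-likelihood dispersions against their trend. Of 8289 genes whose mean reached 1 CPM, 0.229% were called at a Benjamini-Hochberg adjusted p under 0.05, all protein-coding. None of the 176 members tested was called. An unadjusted p under 0.05 was found for 3 members (1.7%), beside 4.29% of all genes tested, and DESeq2, which marked 0.591% of genes as dispersion outliers, marked 0 members. The member with the strongest evidence was Mir22hg (edgeR adjusted p = 0.966), followed by 2700046A07Rik, at 13.6, 14.6 and 9.88 CPM (edgeR adjusted p = 0.982). Norad had an adjusted p of 0.982 in the same edgeR test. In simulated data this test found 1 of 50 genes changed 2-fold in 1 library and 28 of 50 changed 4-fold. There it found 50 of 50 changed 8-fold. Many differences of 4-fold or less could thus be missed. How often a difference of any size, 8-fold included, would be found in the real libraries was not tested.

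Relative spread was described for members at 5 CPM or more, with no test of a difference from other genes. The coefficient of variation of CPM was under 10% in 71 of 86 such members (82.6%), beside 53.3% of all genes at that level, with medians of 5.79% and 9.20%. These shares depended on replicate 3 and on the scaling. Without replicate 3 the counts were 72 of 86 members (83.7%) and 74.4% of all genes. With TMM scaling they were 42 of 86 members (48.8%) and 54.2% of all genes. On plain CPM the narrowest members were F630028O10Rik, 5033406O09Rik (65.7, 66.1 and 65.6 CPM), 1500011B03Rik (101, 102 and 101 CPM), Neat1 and Gm10419. With TMM scaling these 5 had coefficients of variation of 7.33% to 9.13%, and the narrowest was 4930581F22Rik (0.266%). The part of counting error in these values was not computed, so the order of the narrowest members may be chance. The widest on plain CPM were Mir22hg, 2700046A07Rik, AI504432 (150, 112 and 125 CPM), Norad and 4933411E08Rik (5.15, 6.67 and 5.51 CPM). Mir22hg, 2700046A07Rik and AI504432 were also the 3 widest with TMM scaling.

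**Figure D4:**
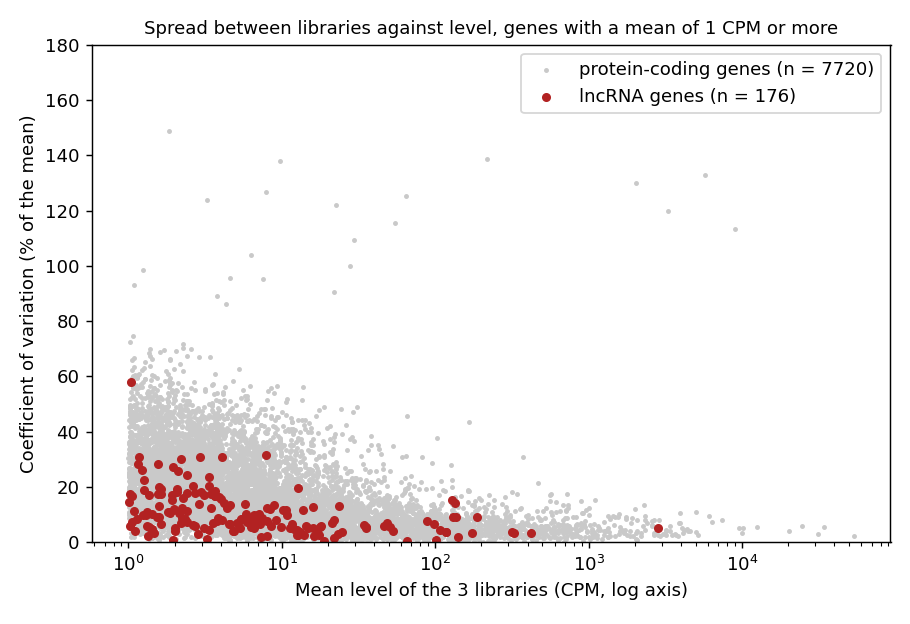
Coefficient of variation over the 3 libraries against mean CPM (log axis) for 176 lncRNA genes and 7720 protein-coding genes that reach 1 CPM on average. The median was 5.31% for lncRNA and 8.83% for protein-coding genes between 10 and 100 CPM, and 3.80% against 5.28% at 100 CPM or more; these are plain CPM, and the counts under 10% turn with TMM scaling.

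Members and other genes also differed in replicate 3; these medians and counts are descriptions of 1 library, with no test. There most genes had their highest CPM, 6752 of 9822 (68.7%), but only 83 of 232 members did (35.8%). The median protein-coding gene was at 3.56, 3.49 and 4.67 CPM in replicates 1, 2 and 3, and the median lncRNA gene at 2.67, 2.84 and 2.62 CPM. The same held at matched levels. Between 1 and 10 CPM, the log2 ratio of replicate 3 to the mean of replicates 1 and 2 had a median of 0.38 over 4886 protein-coding genes and 0.00 over 120 members. Between 10 and 100 CPM the medians were 0.13 and 0.01, and at 100 CPM or more 0.04 and -0.05, where 0 of 15 members but 47.2% of protein-coding genes were highest in replicate 3.

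TMM scaling shifts every gene of a library alike, so it moves both medians together: between 1 and 10 CPM the medians became 0.19 for protein-coding genes and -0.18 for members, and 33 of 232 members (14.2%) against 45.3% of all genes were highest in replicate 3. The 185 protein-coding neighbours of members had their highest CPM in replicate 3 in 64.3% of cases, or 34.6% with TMM scaling. At a mean of 5 CPM or more, 472 of 4351 genes (10.8%) but 0 of 86 members were 1.5-fold or more above the mean of the other libraries in replicate 3. As far below were 1 member, Mir22hg (1.16%), and 0.46% of all genes. Of the 13 leukocyte markers 10 had their highest CPM in replicate 3, the B cell genes Cd79a, Cd79b and Ms4a1 among them. By the same measure 68.7% of all genes, and 74.8% of those between 1 and 10 CPM, were highest in replicate 3. Lyz2 and Nkg7 were highest in replicate 2 and Csf1r in replicate 1, and the summed level of the list was highest in replicate 2. The part of these cells, or of the batch that replicate 3 forms, in the difference was not tested. In replicate 1, where globin RNA was highest, 1 of 86 members, again Mir22hg (1.16%), was 1.5-fold or more above the mean of the others, beside 0.575% of all genes.

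**Figure D5:**
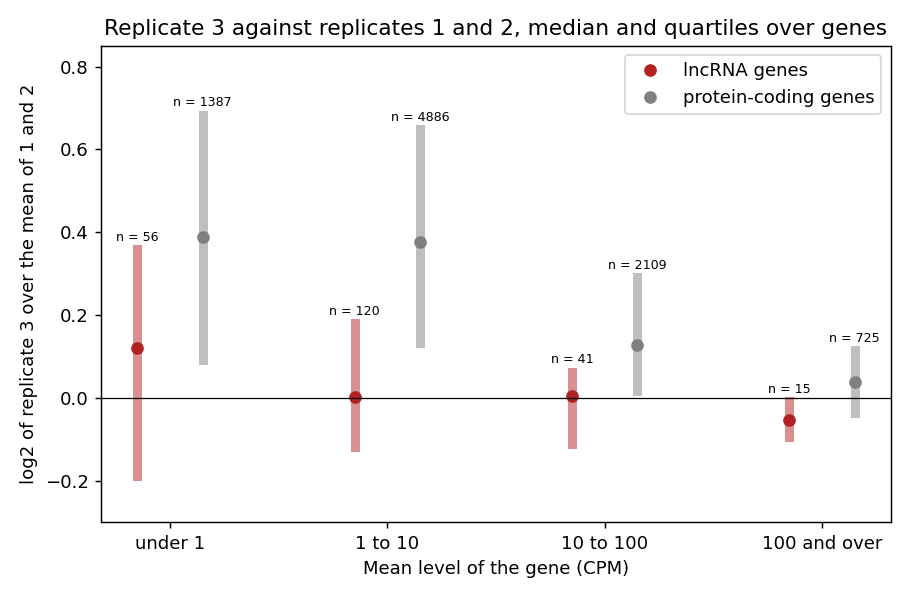
Log2 ratio of CPM in replicate 3 to the mean of replicates 1 and 2, by mean level of the gene, for lncRNA and protein-coding genes; points are medians over genes, bars run from the lower to the upper quartile, and n is the number of genes. Protein-coding medians fall from 0.39 under 1 CPM to 0.04 at 100 CPM or more, and lncRNA medians from 0.12 to -0.05, below the protein-coding median in all 4 classes.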

How the data were processed

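Per the labels' protocols, RNA of purified platelets came from a Norgen kit and sequencing libraries from an Illumina TruSeq RNA kit. The authors deposited raw counts per Entrez gene and a gene length, 1 table per library. Per the submitters' processing notes the build was mm10 and the tools were edgeR 3.11.5, featureCounts, Subread and CASAVA 1.8.2. The sources used here give no annotation, strand setting, gene filter or treatment of reads with several places.

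Biotypes, symbols and coordinates came from RefSeq for GRCm38.p6 (the assembly of mm10; 186 genes unmatched), strands, exons and transcripts from GENCODE M21. Exon overlap left out small RNA and TEC genes. A member without a GENCODE gene was compared by its span. CPM used the plain total of counts and RPKM the deposited gene length; 3 counts, the limit a count of 0 allows, are 0.111 to 0.119 CPM. The spread test used edgeR 4.0.16 (limma 3.58.1, R 4.3.3) with an intercept, TMM and 2 residual degrees of freedom over genes whose mean reached 1 CPM, Benjamini-Hochberg over all of them, and was tested on simulated data. Log2 ratios of pairs used counts plus 2, those of replicate 3 CPM plus 0.1. Other steps used DESeq2 1.42.0, Python 3.11.15, pandas 2.3.3, NumPy 2.4.6, SciPy 1.17.1, edlib 1.3.9.post1 and matplotlib 3.10.9.

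The members, lists and rule for named genes were chosen with earlier results of these data known. The rule took Norad, Tug1 and Neat1, the 20 highest members by CPM and the 10 highest per length, members called for spread (0), all list members, the 5 lowest and 5 highest coefficients of variation at 5 CPM or more, and the nearest protein-coding gene of the 10 highest members. The endothelial markers, which platelets share in part (Pecam1), summed to 1361, 1417 and 1404 CPM. A few genes that the rule or lists name are not reported here.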

Additional observations from a re-analysis of the deposited data

How the results depend on the processing

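No paired analysis was possible because the series has 1 group. The lncRNA share of counts was 0.690%; it was 1.22% of totals without the 10 highest genes, 0.543% without members whose exons overlap another gene, 0.600% on counts per gene length, and 0.405% without Gm6634, the last chosen after seeing the data. Leaving out each replicate gave 0.679% to 0.700%. Detected members numbered 167. They became 85 at 5 CPM, through the higher threshold, and 83 without overlapping members, through the fewer genes that can count. At 0.5 CPM they were 218, and without each replicate 169 to 172. The count of 0 members called for spread did not change under any of the 9 alternatives run, while calls over all genes ranged from 0 with a robust prior to 49 DESeq2 outliers, 19 in the main analysis; they were 30 with DESeq2 size factors, 11 with plain totals, 11 at 5 CPM, 1 without replicate 1, 28 without replicate 2 and 30 without replicate 3. Per read, the log2 ratios were 2.50 (Norad to Tug1), 2.61 (Norad to Neat1), 5.28 (Norad to Malat1), 2.68 (Neat1 to Malat1) and, with the sign turned, 0.11 (Tug1 to Neat1), a result of the lengths alone. A prior count of 0.5 or leaving out any replicate moved none of the 6 ratios by more than its SD. The rho with the neighbour was 0.305 to 0.320 without each replicate. Levels of the 41 named members moved by 0.974 to 1.02 times under TMM or DESeq2 scaling by 1.76 to 1.77 times on totals without the 10 highest genes, and by 0.726 to 1.25 times without a replicate. Coefficients of variation of single members with TMM scaling were also chosen after seeing the data. Dancr, Snhg5, Snhg6, Snhg12 and Dnm3os rest on fewer than 30 counts per library, too few for an order among them.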
